A study of Homo sapiens with 8 samples.

Results

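CDH23 and TG are 2 long human genes that each enclose a smaller gene of the immune system on the opposite strand, VSIR (written C10orf54 in older annotations) within CDH23 and SLA within TG. The peaks described here are all those of the anti-PML::RARA Cut&Run list that overlapped hg19 chromosome 10 from 73150000 to 73580000 (430 kb, the CDH23 window) or chromosome 8 from 133875000 to 134150000 (275 kb, the TG window). They numbered 28 of the 15412 peaks of the list, with 15 in the CDH23 window and 13 in the TG window. The loci were chosen by the peaks themselves, that is by the number of peaks lying over CDH23 and TG and by the symbols VSIR and SLA given to some of them, so the counts, heights and widths below are a description with no test.

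The list came from U937-PR9, a line of monocytic cells in which a zinc-inducible promoter drives a PML::RARA transgene. The study made 8 Cut&Run libraries of this line in 4 groups of 2 replicates, with an anti-PML-RARA or an anti-RARA antibody, in cells induced with 100 µM ZnSO4 and harvested at 5 h or in uninduced cells. All groups carry the transgene. The analysed list is of the induced cells with the anti-PML-RARA antibody and holds the peaks that were reproducible across both replicates. The other 3 groups were not analysed here. Every induced group had both zinc and PML::RARA and no group lacked the transgene, so the effects of zinc and of PML::RARA cannot be told apart in this design. The list has 1 value per peak and none per replicate, which means that no spread between replicates could be set beside a height. Height is read here as the largest signal within a peak, and the apex is the middle of the interval where that signal was reached. For 34 peaks of the list, 0 of them in the windows, that interval had no end and its start was taken as the apex.

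PML::RARA is the fusion protein of acute promyelocytic leukemia. It keeps the DNA-binding domain of the retinoic acid receptor RARA, which reads the hexamer AGGTCA and close variants of it, usually as a repeat bound together with a retinoid X receptor, and the PML moiety lets the fusion form larger assemblies. VSIR encodes VISTA, a checkpoint receptor of the B7 family that restrains T cells and is abundant on myeloid cells. SLA encodes SLAP, an adaptor related to the SRC kinases that lowers receptor signalling together with the ubiquitin ligase CBL. The host genes belong to other tissues. CDH23 encodes a cadherin of the tip links between the stereocilia of hair cells, and TG encodes thyroglobulin, the precursor of thyroid hormone. No RNA was measured in the list, so it shows where the antibody signal lay and not which of these genes was expressed.

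Sequences of the CDH23 window show what lay under the apexes around VSIR. They are given 5′ to 3′ from GRCh37, the same build as hg19, and capitals mark matches to the motifs searched on both strands. The first is the apex of the highest peak of both windows, chr10:73508728-73508756 on the plus strand, which lay wholly in the 3′ UTR of VSIR and is therefore kept to 29 bases. The next is the apex of the peak in intron 4 of VSIR, chr10:73513358-73513558 on the plus strand, followed by the apex of the only peak that carried the symbol VSIR, chr10:73535191-73535391 on the plus strand. The fourth is the apex of the peak in intron 11 of CDH23, chr10:73397926-73398126 on the plus strand, which was among the lowest peaks of the list. The last is the stretch of 250 bases just before the canonical start site of VSIR, chr10:73533278-73533527, read on the minus strand as VSIR is.
VSIR 3′ UTR peak: cagagaagagagggcagggccgcaccaga
VSIR intron 4 peak: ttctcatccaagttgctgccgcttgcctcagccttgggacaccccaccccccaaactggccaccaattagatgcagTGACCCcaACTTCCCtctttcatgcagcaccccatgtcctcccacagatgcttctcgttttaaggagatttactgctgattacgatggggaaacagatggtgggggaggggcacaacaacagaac
Peak with the symbol VSIR: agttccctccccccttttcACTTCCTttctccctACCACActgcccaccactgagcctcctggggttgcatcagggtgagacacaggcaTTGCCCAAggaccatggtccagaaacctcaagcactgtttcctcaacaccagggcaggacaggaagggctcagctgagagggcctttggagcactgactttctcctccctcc
CDH23 intron 11 peak: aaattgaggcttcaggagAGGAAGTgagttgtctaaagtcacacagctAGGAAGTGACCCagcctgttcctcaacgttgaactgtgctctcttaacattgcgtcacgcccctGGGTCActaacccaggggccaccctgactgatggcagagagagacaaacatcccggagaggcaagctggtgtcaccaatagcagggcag
VSIR upstream sequence: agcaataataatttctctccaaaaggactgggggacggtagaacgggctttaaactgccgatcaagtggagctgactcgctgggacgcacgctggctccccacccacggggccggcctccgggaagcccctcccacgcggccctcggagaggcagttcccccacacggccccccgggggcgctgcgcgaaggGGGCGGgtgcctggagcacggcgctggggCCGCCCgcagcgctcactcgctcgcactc

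The apex of the VSIR 3′ UTR peak held no motif in these 29 bases. In the VSIR intron 4 peak a retinoid hexamer (TGACCC on this strand) and an ETS motif (ACTTCCC, the reverse complement of GGGAAGT) were separated by the letters ca only, and both lay on the left of the apex, with their centres 21 and 13 bp from it. In the peak with the symbol VSIR an ETS motif, a RUNX motif and a C/EBP motif lay within the printed bases, and the C/EBP motif was centred 7 bp from the apex. In the CDH23 intron 11 peak the second ETS motif and the first retinoid hexamer shared a base, so that the capitals run on as 1 stretch. The 250 bases before VSIR held 2 GC boxes and none of the other motifs, and 59.2% of the 19819 protein-coding starts examined in the same way hold a GC box. Their GC content was 69.6%, beside a median of 63.2% for those starts. A match is a description of the letters and does not show which protein was bound.

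CDH23 (ENSG00000107736) runs on the plus strand from 73156677 to 73575704, over 419028 bp and 70 exons in GENCODE. VSIR (ENSG00000107738) runs against it on the minus strand from 73507313 to 73533277, over 25965 bp and 7 exons. The whole of VSIR lies in intron 38 of the 69 introns of CDH23, from 73501679 to 73537436, and no CDH23 exon falls inside it. All 15 peaks of the CDH23 window had their apex in an intron of CDH23, but the peaks were unevenly spread. Intron 38, which makes up 8.53% of the length of CDH23, held 8 of the 15 apexes, 70.5% of the summed signal of the window and 66.7% of the bases under peaks.

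Counted by the body of the inner gene, 5 apexes lay over VSIR and 10 over the rest of CDH23, which is 19.3 and 2.54 apexes per 100 kb. The count over VSIR includes only apexes, and the peak at its start site is not among the 5 because its apex lay upstream. With 10 kb added on either side of VSIR the count was 9, at 19.6 per 100 kb. The 350636 bp of CDH23 before the end of VSIR held 8 apexes (2.28 per 100 kb), and the 42427 bp after its start held 2 (4.71 per 100 kb). The peaks were therefore densest over VSIR and its flanks, and the density was lower over the whole stretch of CDH23 on either side. These stretches include the flanks. The 2 apexes after the start of VSIR, and some of the 8 before its end, are also among the 9. The last apex lay 39334 bp before the end of CDH23, and no peak of the window was found in that stretch.

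**Figure D1:**
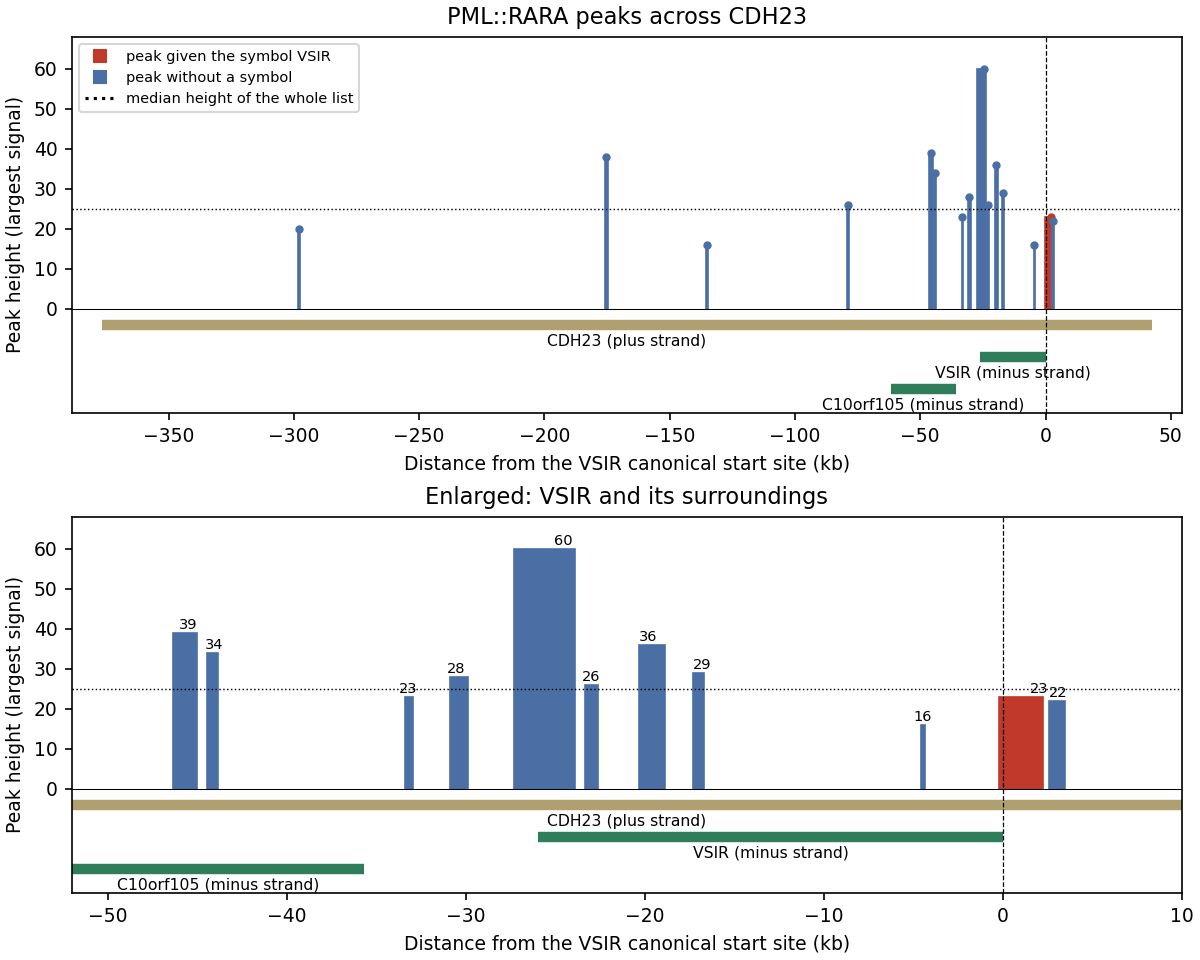
Peaks of the CDH23 window by distance from the canonical start site of VSIR (x axis, kb, negative towards the start of CDH23) and by peak height (y axis, largest signal), for the whole window (top) and around VSIR (bottom). Each bar spans the width of 1 peak. Points mark apexes in the top panel only, and numbers in the bottom panel give heights. The horizontal bars below are genes, and the dotted line is the list's median height of 25. The red bar is the peak with the symbol VSIR. At a height of 23 it was lower than the blue bar of height 60 at the other end of VSIR.

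The highest peak of both windows covered the 3′ end of VSIR. It ran from 73505960 to 73509378, over 3419 bp, with a height of 60, which was above 98.9% of all peaks of the list in height and above 99.2% in width. Its apex lay in exon 7 of VSIR, the last exon, within the 3′ UTR, 24535 bp downstream of the VSIR start and 1429 bp inside the end of the gene. Of its bases, 2066 lay inside VSIR and 1353 beyond its end. This peak alone held 31.9% of the signal of the CDH23 window in 21.0% of the bases under peaks. Its signal averaged 14.9 per base, above 92.1% of all peaks. The list held 14 peaks that were at least as high and as wide, itself included, and 4 of them carried no gene symbol, this peak among them.

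The other 4 peaks with an apex inside VSIR followed in order towards its start. The nearest, from 73509935 to 73510646, lay in the same 3′ UTR, 26 high and 712 bp wide. A peak from 73512981 to 73514412 in intron 4 of VSIR was 36 high and 1432 bp wide. A peak from 73515959 to 73516595 in intron 3 was 29 high and 637 bp wide, and its apex lay 930 bp from an internal start site of VSIR at 73517387. The transcript from that site has no defined coding sequence. The last, from 73528695 to 73528949 in intron 1, was the narrowest of the window at 255 bp and one of its lowest at a height of 16. Over the 5 apexes within VSIR the median height was 29, and over the other 10 of the window it was 24.5. The medians of width had the opposite order, at 712 bp over VSIR and 865.5 bp elsewhere. Heights inside VSIR ran from 16 to 60 and so spanned the whole range of the window.

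At the 5′ end of VSIR the signal was wide and low. The peak from 73533046 to 73535542 was 2497 bp wide, wider than 97.0% of all peaks, but its height of 23 was above that of only 40.7%. It covered the canonical start site of VSIR at 73533277, which lay 231 bp inside its edge, while its apex was 2014 bp upstream of that site. This was the single peak of the window with a gene symbol, VSIR. A further peak from 73535861 to 73536745 lay 318 bp beyond it, with a height of 22, a width of 885 bp and an apex 3093 bp upstream of VSIR. Both lay in intron 38 of CDH23, as did a peak from 73502396 to 73503421 on the far side of VSIR, of height 28 and width 1026 bp, with its apex 4574 bp past the end of the gene. The peaks at the 2 ends of VSIR thus differed in height. The peak covering the start reached 23, at an apex upstream of the gene, and the peak covering the end reached 60.

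The remaining 7 peaks of the CDH23 window were upstream of intron 38 and none carried a symbol. The first in the gene, in intron 3 (73234981 to 73235892), had its apex 78523 bp downstream of the canonical CDH23 start, 20 high and 912 bp wide. A peak in intron 9 (73357634 to 73358479) was 38 high and 846 bp wide. The peak in intron 11 (73397870 to 73398454), whose apex sequence is printed, had a height of 16, shared with another peak of the window as its lowest, and a width of 585 bp. A peak in intron 21 (73454004 to 73454713) was 26 high and 710 bp wide. Intron 30 held 2 neighbours, one from 73486937 to 73488253 (height 39) and one from 73488814 to 73489433 (height 34). They were separated by 560 bp, and the second, though only 620 bp wide, averaged a signal of 16.1 per base, above 94.9% of all peaks. The pair lay within C10orf105 (ENSG00000214688), another gene inside CDH23 on the minus strand, with the nearer apex 8227 bp upstream of its canonical start. The last of the 7, in intron 36 (73499886 to 73500309), was 23 high and 424 bp wide, and its apex lay 2479 bp from another start site of C10orf105. The symbols CDH23 and C10orf105 were given to no peak of the list, and the nearest apex to the canonical CDH23 start lay outside the window, 19338 bp upstream.

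With neighbours less than 10 kb apart joined, the 15 peaks fell into 7 groups. The largest held 6 peaks from 73499886 to 73516595, a span of 16710 bp over the 3′ part of VSIR and the CDH23 sequence beyond it. It took 55.7% of the signal of the window in 47.0% of the bases under peaks. A group of 3 peaks lay around the VSIR start, from 73528695 to 73536745, with 16.9% of the signal in 22.3% of the bases. The pair in intron 30 took 12.8% of the signal, and the other 4 peaks stood alone. Gaps between neighbours ran from 318 to 121741 bp, the longest of them in the early part of CDH23.

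TG (ENSG00000042832) runs on the plus strand of chromosome 8 from 133879203 to 134147147, over 267945 bp and 48 exons. SLA (ENSG00000155926) runs on the minus strand from 134048973 to 134115156, over 66184 bp and 9 exons, and is larger than VSIR against its host. It covers most of TG intron 41 and all of intron 42, reaches into intron 43, and overlaps 2 TG exons. All 13 peaks of the TG window had their apex in an intron of TG. Of these, 5 lay over SLA, at 7.55 apexes per 100 kb, and 8 over the rest of TG, at 3.97 per 100 kb. Before the end of SLA there were 6 apexes in 169770 bp (3.53 per 100 kb), and after its start there were 2 in 31991 bp (6.25 per 100 kb). With 10 kb added on either side of SLA the count was still 5, at 5.80 per 100 kb, which is below the 6.25 after its start. The difference in density between the inner gene and its host was therefore smaller at SLA than at VSIR, and neither was tested.

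The peaks over SLA formed 1 group of 5 between 134086749 and 134107890, a span of 21142 bp that held 49.8% of the signal of the window in 48.8% of the bases under peaks. All 5 were on the side of SLA towards its start, and none lay in the part of the gene from 134048973 to 134086749. The 2 peaks with the symbol SLA were among them. The first, from 134086749 to 134087434, was 30 high and 686 bp wide, and its apex lay 13 bp upstream of an internal start site of SLA at 134087204, in an exon annotated as 5′ UTR. The second, from 134089190 to 134090713, was 27 high and 1524 bp wide, the widest of the TG window, with its apex in intron 1 of SLA and 1938 bp upstream of another internal start at 134088372. The symbol therefore went to peaks that lay 27629 and 24536 bp downstream of the canonical SLA start.

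SLA has 23 transcripts with 19 start sites in GENCODE, which fall into 3 stretches. The outer stretch, from 134114721 to 134115156, starts 14 transcripts, of which 10 are annotated as protein-coding, and holds the canonical start at 134114846. Its nearest apex was 6924 bp away. The middle stretch, from 134087198 to 134088372, starts 6 transcripts, and 0 of them are annotated as protein-coding. The first peak with a symbol overlapped this stretch, and the second lay just upstream of it. The inner stretch, from 134052586 to 134072603, starts 3 transcripts, 1 of them protein-coding, and its nearest apex was 14614 bp away. So the labelled SLA peaks were next to starts of transcripts not annotated as protein-coding, while the outer starts had no peak over them. At VSIR the labelled peak did cover the canonical start.

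The other 3 peaks over SLA were in its intron 1 and carried no symbol. A peak from 134093821 to 134094457 was 28 high and 637 bp wide. A peak from 134104410 to 134105317 was 23 high and 908 bp wide, with its apex 1880 bp from an internal start site of TG. The closest to the canonical SLA start, from 134107603 to 134107890, lay 7049 bp downstream of it in TG intron 42, and its apex was 394 bp from an internal start site of TG. It was a weak peak, 288 bp wide with a height of 18. The median height over SLA was 27, against 24 over the rest of TG, where heights ran from 16 to 36. The median width was 686 bp over SLA and 501 bp over the rest of TG.

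**Figure D2:**
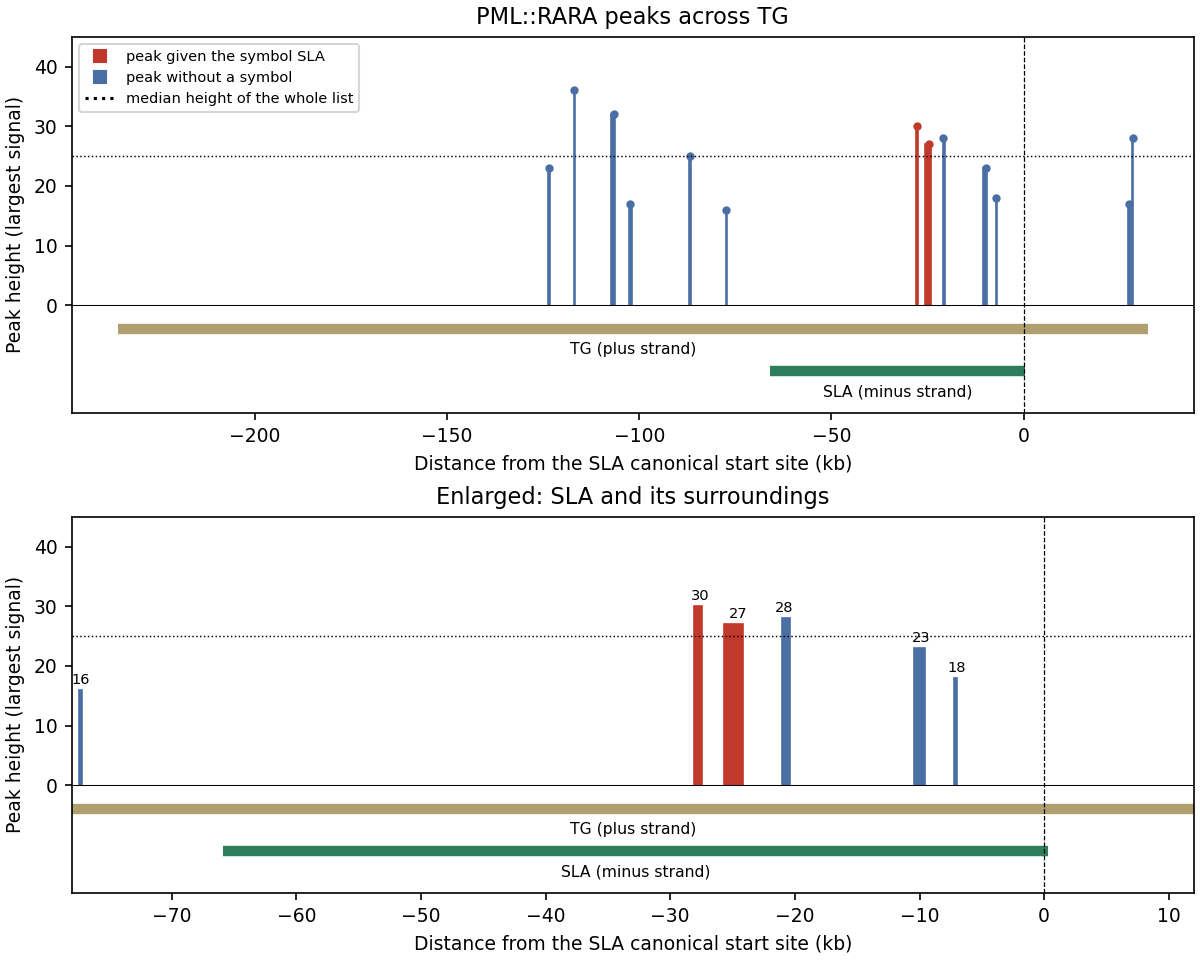
Peaks of the TG window by distance from the canonical start site of SLA (x axis, kb, negative towards the start of TG) and by peak height (y axis, largest signal), for the whole window (top) and around SLA (bottom). Bars span the peaks. Points mark apexes in the top panel only, and numbers in the bottom panel give heights. The horizontal bars below are genes, and the dotted line is the list's median height of 25. The 2 red bars, the peaks with the symbol SLA, have heights of 30 and 27 and lie about the middle of SLA, and no bar stands over the canonical start.

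The 8 peaks of TG outside SLA carried no symbol. Those before SLA began 112240 bp downstream of the canonical TG start, so that the first 34 exons of TG were without a peak. The first, in intron 34 (133991210 to 133991640), was 23 high and 431 bp wide. Intron 35 held 3 peaks, which began at 133997829, 134007498 and 134012270, of heights 36, 32 and 17 and widths 270, 958 and 602 bp in order along the gene. The first of these was the highest of the TG window and among its narrowest, above 80.0% of all peaks in height but above only 3.69% in width. Intron 37 held a peak (134027752 to 134028322) of height 25 and width 571 bp, and intron 40 (134037436 to 134037638) held the narrowest and lowest peak of the window, 203 bp wide with a height of 16. Past the start of SLA, intron 45 held 2 neighbours (134142012 to 134142800 and 134143028 to 134143437) 227 bp apart, of heights 17 and 28 and widths 789 and 410 bp. No peak of the list carried the symbol TG, and the nearest apex to its canonical start lay 32904 bp upstream, outside the window. Internal start sites of TG lay closer to some peaks. They were 1983 bp from the apex in intron 37, and 3463 and 2398 bp from the apexes in intron 45.

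Against the whole list, the peaks of both windows were of ordinary height. The median height was 26 in the CDH23 window (95% interval of the median 22 to 36, range 16 to 60) and 25 in the TG window (17 to 30, range 16 to 36), beside 25 over all peaks, where the quartiles were 19 and 33. The median width was 846 bp (620 to 1317) and 602 bp (288 to 908), beside 829.5 bp over all peaks and 634 bp over those without a symbol. At or above the list's median height were 9 of 15 and 7 of 13, and at or above its median width were 8 of 15 and 3 of 13. By their median the TG peaks were thus narrower than the list but not lower, and the interval of that width holds the list's 829.5 bp. Their median of 602 bp was near the 634 bp of peaks without a symbol, as most of them were. A height above 43, passed by 1385 peaks of the list, was found once, at the VSIR 3′ UTR peak.

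**Figure D3:**
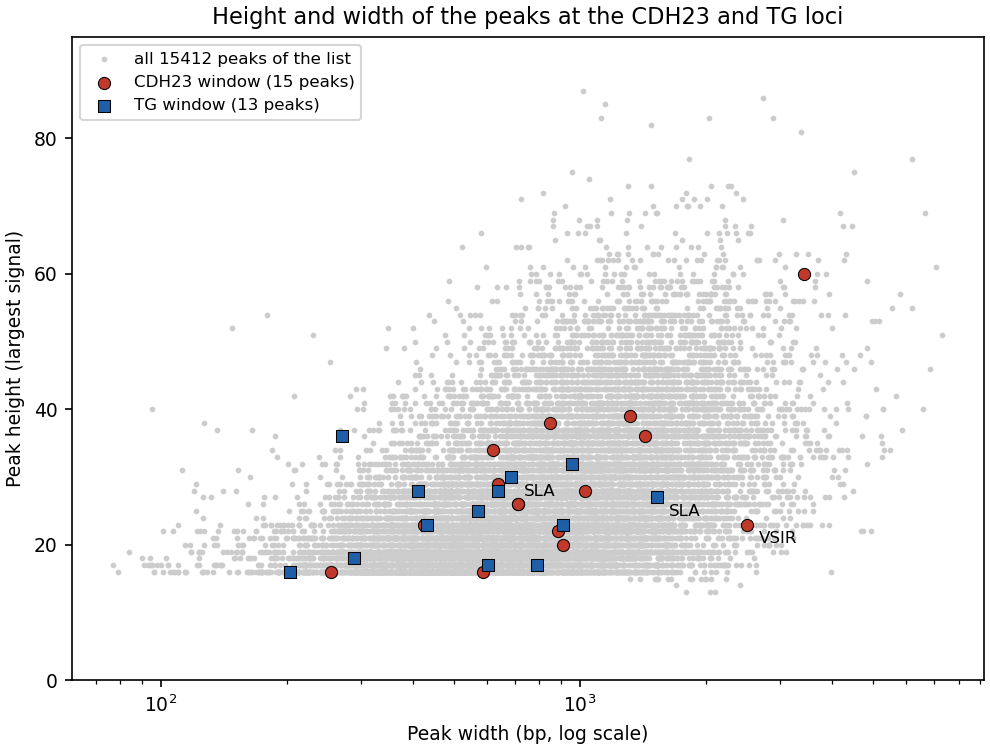
Height (y axis, largest signal) against width (x axis, bp, log scale) of every peak of the list (grey), of the 15 peaks of the CDH23 window (red circles) and of the 13 peaks of the TG window (blue squares). The VSIR 3′ UTR peak, 3419 bp wide with a height of 60, stands at the upper right, and the 3 peaks with a gene symbol are marked by it.

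A gene symbol was given to 1 of the 15 peaks of the CDH23 window (6.67%, Wilson 95% interval 1.19 to 29.8%) and to 2 of the 13 peaks of the TG window (15.4%, 4.33 to 42.2%). Over all peaks the share was 46.5%. Both windows together had 3 of 28 (10.7%, 3.71 to 27.2%). The loci were chosen partly for their symbols, so the shares are a description. The intervals cover the counting of peaks only, and peaks next to each other are not independent. All 3 symbols named the inner gene, and the 14 and 11 peaks without a symbol are absent from the list's gene column. The symbols depend on the apex, and the VSIR 3′ UTR peak, the highest of the 28, received none.

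Both hosts and both inner genes held many apexes beside other genes. Of 3514 protein-coding genes of at least 100 kb, 2164 held no apex, and the 15 of CDH23 and 13 of TG were above 99.9% and 99.8% of these genes in count. In apexes per 100 kb CDH23 was at 3.58, above 98.1%, and TG at 4.85, above 99.2%. Among genes within 1.5 times its length, the count was above 99.6% of 708 genes for CDH23 and above 99.6% of 1199 for TG. By the same limits on length VSIR was above 99.8% of 4101 genes in density, and SLA above 98.9% of 3590. These counts were part of the choice of the loci. An apex lay over 28.6% of all 19472 protein-coding genes.

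The annotation held 793 pairs of a protein-coding gene wholly inside a protein-coding host of at least 100 kb, with 330 hosts, of which 180 had no apex. Only 41.5% of the pairs lay on opposite strands, as VSIR and SLA do with their hosts. The others shared a strand, many of them within gene families such as the PCDHA genes. The 5 hosts with the most apexes were CDH23 with 15, HIVEP3 with 15, RUNX1 with 14, TG with 13 and RFX2 with 12. HIVEP3, a zinc finger DNA-binding protein, and RUNX1, a master transcription factor of blood cells, carried promoter symbols of their own, as did RFX2, a transcription factor of ciliated cells. CDH23 and TG did not. VSIR and SLA, with 5 apexes each, had the most apexes of the nested genes, and no other of the 793 pairs reached 5. A symbol for the nested gene and none for its host, the state of CDH23 with VSIR and of TG with SLA, was found in 38 pairs (4.79%), the reverse in 99, both in 9 and neither in 647. These counts take in pairs on either strand and were not made for opposite-strand pairs alone.

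Motifs were counted within 200 bp of each apex, on both strands. The retinoid hexamer (AGGTCA or GGGTCA) was found in 8 of 15 peaks of the CDH23 window and 6 of 13 of the TG window, 50% together (Wilson 95% interval 32.6 to 67.4%), beside 39.2% of all peaks and 44.5% of those without a symbol. Direct repeats of the hexamer with 1, 2 or 5 bases between, the usual arrangement for retinoid receptors, were found in 0 of 28, and in 0.156%, 0.0714% and 0.136% of all peaks. The ETS motif (AGGAAGT or GGGAAGT), read by a family with many blood cell regulators, was found in 8 of 15 (53.3%) and 3 of 13 (23.1%), beside 32.1% of all peaks and 40.5% of those without a symbol. The RUNX motif (TGTGGT), read by RUNX1 and its paralogs, was found in 5 of each, 35.7% together, beside 28.7% and 40.3%. For these motifs the intervals of the windows hold the share of the peaks without a symbol.

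The C/EBP motif (TTGCNNAA), read by a family of myeloid transcription factors, was found in 6 of 15 and 6 of 13, 42.9% together (26.5 to 60.9%), beside 16.8% of all peaks and 22.6% of those without a symbol. The AP-1 motif (TGACTCA or TGAGTCA), read by FOS and JUN dimers, was in 0 of 15 peaks of the CDH23 window (up to 20.4%) and in 5 of 13 of the TG window (38.5%, 17.7 to 64.5%), beside 14.4% and 21.9%. The GC box (GGGCGG), common in promoters and read by SP and KLF factors, was in 3 of 15 and 0 of 13, 10.7% together (3.71 to 27.2%), beside 48.7% and 24.9%. The C/EBP share of both windows together thus lay above that of all peaks and the GC box share below it. Against peaks without a symbol, the C/EBP interval of both windows together lies above their 22.6%, and the GC box interval holds their 24.9%. By window, the C/EBP interval of the CDH23 window (19.8 to 64.3%) holds 22.6%, and that of the TG window (23.2 to 70.9%) begins just above it. The GC box interval of the CDH23 window (7.05 to 45.2%) holds 24.9%, and that of the TG window (0 to 22.8%) lies below it. The intervals cover the counting of peaks only, and neighbouring peaks are not independent. None of these shares was tested. An ETS motif and a retinoid hexamer occurred together in 5 of 28 peaks (17.9%), beside 14% of all peaks, and 2 of the 28 held none of the motifs. The ETS motif and the hexamer can share a base, as in CDH23 intron 11.

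**Figure D4:**
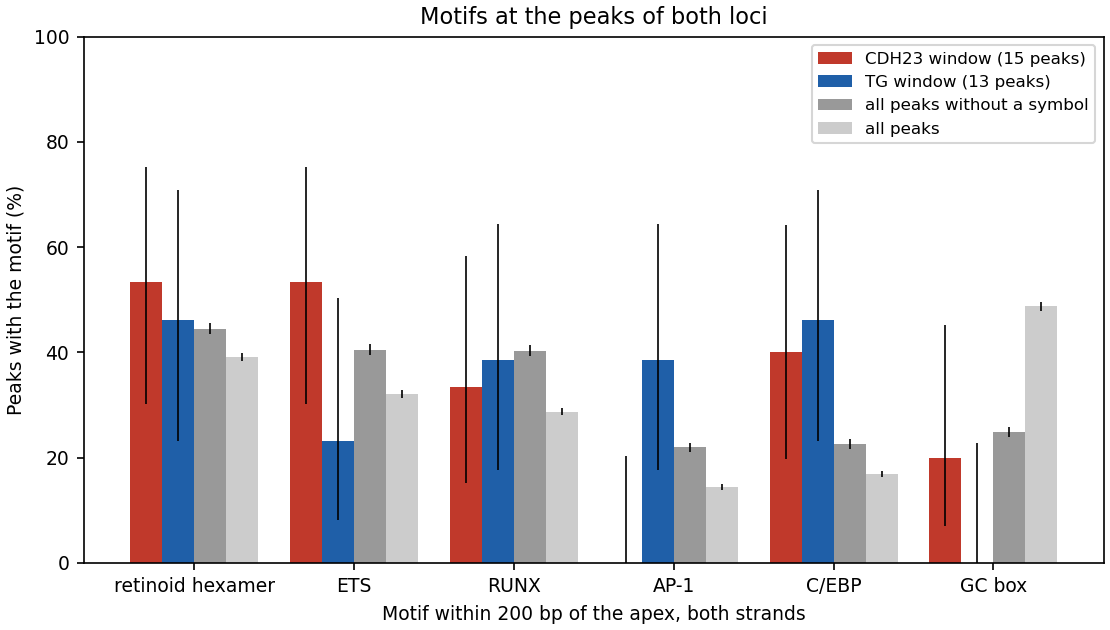
Share of peaks (y axis, %) with each motif within 200 bp of the apex (x axis), for the CDH23 window (red, 15 peaks), the TG window (blue, 13 peaks), all peaks without a gene symbol (dark grey) and all peaks (light grey). Lines are Wilson 95% intervals. The C/EBP bars of both windows stand above the grey bars, the AP-1 bar is missing for CDH23 at 0 of 15, and the GC box bar is missing for TG at 0 of 13.

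At the peaks around VSIR the motifs lay close to several apexes. In the VSIR 3′ UTR peak an ETS motif was centred 29 bp and a retinoid hexamer 133 bp to the right of the apex. The VSIR intron 4 peak held 3 ETS motifs and 2 hexamers. The VSIR intron 3 peak held 2 RUNX motifs and a C/EBP motif, and the nearer RUNX motif was centred 8 bp from the apex. The outermost peak, 3093 bp upstream of VSIR, had a RUNX motif centred 10 bp and an ETS motif 54 bp from its apex. Of the 5 peaks over SLA, 4 held a hexamer, 3 a C/EBP motif and 2 an AP-1 motif. The first peak with the symbol SLA, without a hexamer, had an ETS motif and 2 C/EBP motifs. The base composition of the windows differed from that of the list, with a median GC content of 53.6% in the CDH23 window and 47.4% in the TG window, beside 58.1% over all peaks and 52.9% over those without a symbol. Below the list's median were 11 of 15 and 13 of 13. Its part in the motif counts was not tested.

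Immediately outside the windows the nearest peaks ranged from 1569 to 30722 bp away. Before the CDH23 window the nearest peak was 12524 bp away, 17 high and 510 bp wide. After it the nearest was 30722 bp away at the promoter of PSAP, the prosaposin gene of lysosomal lipid breakdown, with a height of 47, a width of 903 bp and an apex 102 bp upstream of the PSAP start. A second PSAP peak had a height of 21. Within the CDH23 window the outermost peaks had heights of 20 and 22, and lay 84981 bp after its start and 43255 bp before its end. Before the TG window the nearest peak lay 28572 bp away with a height of 17, and the nearest with a symbol was at PHF20L1, a gene for a chromatin reader protein, with a height of 31. After it a peak of height 26 lay 1569 bp away. Within the TG window the outermost peaks had heights of 23 and 28, and lay 116210 bp after its start and 6563 bp before its end. Only the end of the TG window thus had peaks close to it on both sides.

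The families of the inner genes were read from the same list, by the symbols given to peaks and by apexes over the genes. A promoter symbol or promoter peak here means a peak given the symbol of the gene, wherever it lay against the canonical start. Over all 19472 protein-coding genes, 30.9% had a symbol in the list. Of 10 genes of the B7 and VISTA family, 2 had a promoter symbol (20.0%) and 4 an apex over the gene (40.0%). The promoter symbols were VSIR and ICOSLG, the ICOS ligand, whose promoter peak had a height of 17. The ligand genes PDCD1LG2 and CD276 had 1 apex each without a promoter symbol, of heights 21 and 37. The other 6, among them CD274, CD80 and CD86, had neither. Without VSIR, 1 of 9 had a promoter symbol and 3 of 9 an apex, beside 28.6% of all protein-coding genes with an apex. Of 4 genes named as partners of VISTA, only SELPLG, which encodes the selectin ligand PSGL-1, had any, with 3 promoter peaks up to a height of 33. The other partners, IGSF11, LGALS9 and HAVCR2, had none.

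The genes that work with SLA formed the next list. Of 12 genes of the SLAP family and its partners in receptor downregulation, 6 had a promoter symbol (50%) and 9 an apex over the gene (75%). The highest promoter peaks were at LCK, a SRC family kinase of T cells (height 40), CSF1R, the macrophage growth factor receptor (33), and SLA (30). Not all lay at the canonical start. The SLA peak of height 30 lay 27629 bp downstream of it, and the nearest apex to the canonical CSF1R start was 3951 bp away. SYK, CBL and CBLB had promoter heights of 29, 26 and 21. LYN, a SRC family kinase of myeloid cells, had no promoter symbol but 4 apexes over the gene, up to a height of 40, and CD247 and FLT3 had neither. Without SLA, whose peaks were part of the choice of the loci, 5 of 11 had a promoter symbol and 8 of 11 an apex, beside 30.9% and 28.6% of all protein-coding genes. No test of this was made. The shares of all protein-coding genes are not matched to the list genes for gene length, here or for the other gene lists.

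The functional families of the host genes were read in the same way, again beside 30.9% of all protein-coding genes with a symbol and 28.6% with an apex. Of 11 genes of thyroid hormone synthesis, 0 had a promoter symbol and 2 had an apex over the gene (18.2%), TG with 13 and PAX8, a thyroid and kidney transcription factor, with 4 up to a height of 37. The thyrotropin receptor gene TSHR was among the 9 with neither. Of 10 genes of hair cell tip links and Usher syndrome, 1 had a promoter symbol (10.0%), the myosin gene MYO7A with a height of 25, and 4 had an apex over the gene (40.0%). These were CDH23, MYO7A with 3 up to a height of 44, ADGRV1 with 2 and WHRN with 1. The nearest apex to the canonical MYO7A start was 24106 bp away. PCDH15, the partner of CDH23 in the tip link, was among the 6 with neither. Without TG and CDH23, whose peaks were part of the choice of the loci, 1 of 10 thyroid genes and 3 of 9 hair cell genes had an apex.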

How the data were processed

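U937-PR9 nuclei were profiled by Cut&Run. The authors used Trimmomatic for trimming, Bowtie2 for alignment to hg19, Samtools to drop duplicates, Bedtools to drop blacklisted reads and SEACR (norm union, paired control as background) for peaks, and kept peaks reproducible across 2 replicates at an IDR below 0.05 (versions not given in the sources used here). The authors deposited a total signal and a score for each peak, the score being its largest signal and called height here. Whether the signal is of 1 replicate or pooled is not stated, and depth per library is unknown. The authors assigned gene symbols from the apex.

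Positions were read from GENCODE release 44 on GRCh37 at the apex (Python 3.11.15, pandas 2.3.3, pysam 0.24.0). Percentiles give the share of all peaks with a lower value. Intervals are Wilson 95% for shares and from order statistics for medians. Percentiles, intervals and the merging of neighbours were checked on simulated or made-up values. The loci, members and gene lists were chosen with earlier results of these data known. Named are the members, the list genes with the highest promoter peaks, and the 5 hosts with most peaks. Of the other protein-coding genes in or next to the windows, C10orf105, PSAP and PHF20L1 are named, and not all are. Other list genes were named after their values were seen.

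The alternatives were thresholds at the median height or width, merging neighbours under 1 kb, other windows and gene bounds, other host lengths, and other start sites.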

Additional observations from a re-analysis of the deposited data

How the results depend on the processing

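The list has 1 value per peak, so no replicate could be left out, and depth limits cannot be given. No paired analysis was possible because single replicates have no values in it. Of 50 alternative values for 14 results, 37 moved by less than the criterion (1.5 times for a count, the interval for a share or median, and for a distance the span from centre to edge of the nearest peak) and 13 by more. A floor at the median height left 9 of 15 in the CDH23 window, 7 of 13 in the TG window and 3 of 5 over SLA, and a symbol on 0% of the CDH23-window peaks in place of 6.67%. A floor at the median width left 8 in the CDH23 window, 3 in the TG window, 2 over VSIR and 2 over SLA. With 10 kb added on either side, VSIR had 9 apexes in place of 5. An apex within 3 kb of any start site was found in 53.8% of TG-window peaks, where 15.4% carried a symbol. The distance from the VSIR start, 2014 bp, was within that span at 1017 bp to the peak centre and 930 bp with every transcript start counted. The nearest apex to SLA was 13 bp away in place of 7049 bp when every transcript start counted. With nested genes of any type (2901 hosts), 2 other hosts had at least as many apexes as CDH23, in place of 1, and 7 at least as many as TG, in place of 3. The fewer peaks at a threshold, the wider bounds and the larger set of starts or hosts follow from how each alternative is built.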
